A study of Sus scrofa with 23 samples.

Results

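The 1-cell cloned embryos of the pig were compared with zygotes of the same stage that had formed in vivo. Of the 23 libraries of the series 3 belong to this comparison, namely NT-D-1C and NT-LW-1C, the clones, and IV-D-1C, the zygotes. A gene was counted when both clone libraries differed from IV-D-1C in the same direction by more than 1 on the scale of log2(FPKM + 1), with an FPKM of at least 1 in one library of each pair. The deposited table holds 8603 genes. At this stage 7170 of them could be tested, and 796 of them were higher and 124 lower in both clones. These were 11.1% and 1.73% of the genes tested, and 0 genes were called in opposite directions.

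NT-D clones were made by fusing ear fibroblasts of a Duroc boar with enucleated oocytes, and NT-LW clones by the same procedure with an ear fibroblast line from a boar of the Chinese Laiwu breed. The recipient oocytes of both groups had matured in vitro after aspiration from slaughterhouse ovaries of hybrid sows, although their library, NT-D-OC, is labelled Duroc. IV-D embryos were flushed from Duroc sows inseminated with semen of the boar that gave the NT-D donor cells, and IV-D-OC holds MII oocytes of Duroc sows. Every library was a pool of several oocytes or embryos. The data used here hold 1 library per condition, and no error or test between conditions exists within them. Clones were all male and in vivo zygotes of both sexes, clones were cultured in vitro and zygotes were not, and clones were activated by electric pulses and zygotes by sperm. These features of the design and the nuclear transfer itself cannot be told apart.

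A zygote works mostly with RNA that the oocyte stored, because its own genome is still nearly silent. Stored mRNAs are switched on and off by lengthening and shortening of their poly(A) tails, and many are cleared after the egg is activated. In a clone the sperm is replaced by a somatic nucleus, whose chromatin has to be remodelled by the same stored factors, and by an artificial signal. The cDNA was primed on poly(A), so a transcript was measured as polyadenylated RNA. FPKM is a share of the fragments of a library, so that fewer embryos of a pool with a transcript and less of it per embryo cannot be told apart.

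Depth was 16603983 fragments for IV-D-1C, 16152374 for NT-D-1C and 20430720 for NT-LW-1C. The 12 oocyte markers of the table were all detected at 1 FPKM or more, with sums of 6340 FPKM in IV-D-1C, 6537 in NT-D-1C and 6762 in NT-LW-1C. The 3 libraries were closely related across the 8603 genes. Pearson's r of log10(FPKM + 1) was 0.953 between NT-D-1C and IV-D-1C, 0.945 between NT-LW-1C and IV-D-1C and 0.975 between both clones, as a description across genes, which are not independent replicates.

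Most genes lay somewhat lower in IV-D-1C than in both clones. The median difference over the 7170 genes was 0.41 for NT-D-1C and 0.34 for NT-LW-1C, while it was 0.05 for both clones in the quintile of genes most abundant in the recipient oocytes. The 100 most abundant genes took 36.3% of the fragments in IV-D-1C, 29.7% in NT-D-1C and 28.6% in NT-LW-1C, and the median gene stood at 7.75, 11.3 and 10.8 FPKM in these libraries. When each library was divided by its median ratio to the mean library, 316 genes (4.41%) were higher and 422 (5.88%) lower in both clones. The share of calls that were higher thus moved from 86.5% to 42.8%. All 316 were among the 796, and all 124 genes that were lower by FPKM stayed lower. This overlap was fixed in advance. The factors, 0.811 for IV-D-1C, 1.13 for NT-D-1C and 1.09 for NT-LW-1C, moved the differences of both clones down. Scaling to sums of 1000000 kept all 796 higher genes but only 76 of the 124 lower ones. Below, both scales means FPKM and median-ratio scaling, on which the 316 and the 124 hold. Genes that hold on the FPKM scale alone are named as such.

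**Figure D1:**
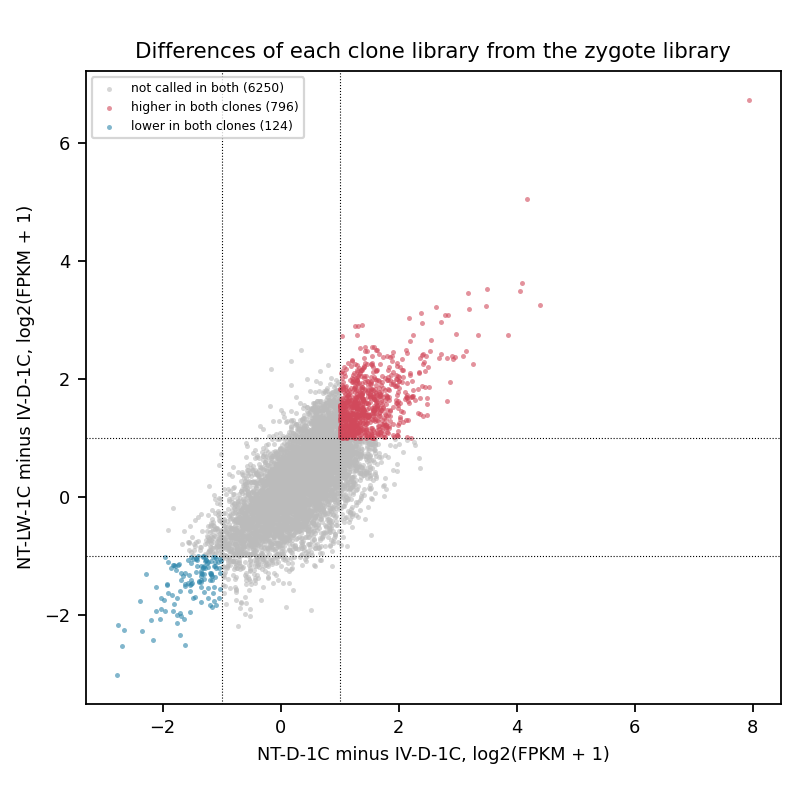
Difference of each clone library from IV-D-1C for the 7170 genes tested, NT-D-1C on the x axis and NT-LW-1C on the y axis, both in log2(FPKM + 1). Dotted lines mark differences of 1, red points the 796 genes higher and blue points the 124 genes lower in both clones. The cloud is centred above 0 on both axes, and no gene lies in the corners where the clones are called in opposite directions. The axes share IV-D-1C.

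Each clone on its own gave more calls. NT-D-1C had 1309 genes higher (18.5% of 7088 tested) and 244 lower (3.44%) than IV-D-1C. NT-LW-1C had 1464 higher (20.8% of 7031) and 290 lower (4.12%). Both comparisons use the same zygote library, so their shared calls are a count fixed by the rule and not a replication. Between the clones 455 genes differed (6.39% of 7118), 334 of them higher in NT-D-1C and 121 higher in NT-LW-1C. Only 28 of the 920 genes called in both clones also differed between the clones by this rule.

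Most calls were of modest size. In 588 of the 796 higher genes the smaller of both differences lay between 1 and 1.5, in 156 between 1.5 and 2, and in 52 above 2. Among the 124 lower genes these numbers were 93, 23 and 8. TRIP11 was just inside the threshold, and on the FPKM scale alone, with 13.1 FPKM in IV-D-1C, 27.1 in NT-D-1C and 40.0 in NT-LW-1C. KIF14 was just outside with 4.91, 10.8 and 17.6 FPKM. On the lower side RPS3A was just inside with 37.2, 14.4 and 18.1 FPKM, and RXYLT1 just outside with 114, 56.3 and 56.5 FPKM.

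Transcripts of mesenchymal cells were found in all 3 libraries, the in vivo zygotes included. The list of fibroblast markers has 17 genes in the table, of which 13 reached 1 FPKM in at least one 1-cell library and 3 in at least one oocyte library. Its summed level was 175 and 152 FPKM in IV-D-OC and NT-D-OC, 351 in IV-D-1C, 365 in NT-D-1C and 350 in NT-LW-1C. ANXA2, which oocytes also contain, made up 169 and 147 FPKM of the sums in oocytes. It made up 228 FPKM in IV-D-1C, 203 in NT-D-1C and 165 in NT-LW-1C. Without ANXA2 the sum was lower in IV-D-1C than in both clones. S100A4, a calcium-binding protein of motile mesenchymal cells, was listed at 0 in both oocyte libraries and stood at 39.9 FPKM in IV-D-1C, 63.9 in NT-D-1C and 76.1 in NT-LW-1C. COL1A2, a chain of type I collagen, had 9.31, 14.7 and 8.76 FPKM, against 0.83 and 1.40 in the oocytes. VIM, the intermediate filament vimentin, had 7.02, 4.02 and 3.31 FPKM, against 0.06 and 0.03. FN1, PDGFRA, CCN1 and CCN2 stayed below 1 FPKM in the 3 libraries. These genes were picked out after their values were seen.

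At the 2-cell stage the genes of the list lay in different ways. S100A4 had 0.12 FPKM in IV-D-2C, 76.8 in NT-D-2C and 48.2 in NT-LW-2C, and COL1A2 had 1.40, 9.56 and 9.20 FPKM. ANXA1 lay the other way with 11.2, 3.48 and 2.37 FPKM, and VIM had 0.98, 1.73 and 2.49. The list summed to 164, 336 and 296 FPKM there, of which ANXA2 made up 145, 183 and 174. Of the 13 genes of the list that were tested 2 were higher and 2 lower in both 1-cell clones, beside 11.1% and 1.73% of all genes. The higher ones were ACTA2 and FBN1, the lower ones ANXA1 and SPARC. FBN1 was higher on the FPKM scale alone, and after median-ratio scaling 1 gene of the list was higher and 5 were lower. The part of donor cells or of other cells in these values was not tested. Without the list and without every gene below 1 FPKM in both oocyte libraries, 763 genes were higher and 112 lower, a restriction chosen after the values were seen.

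**Figure D2:**
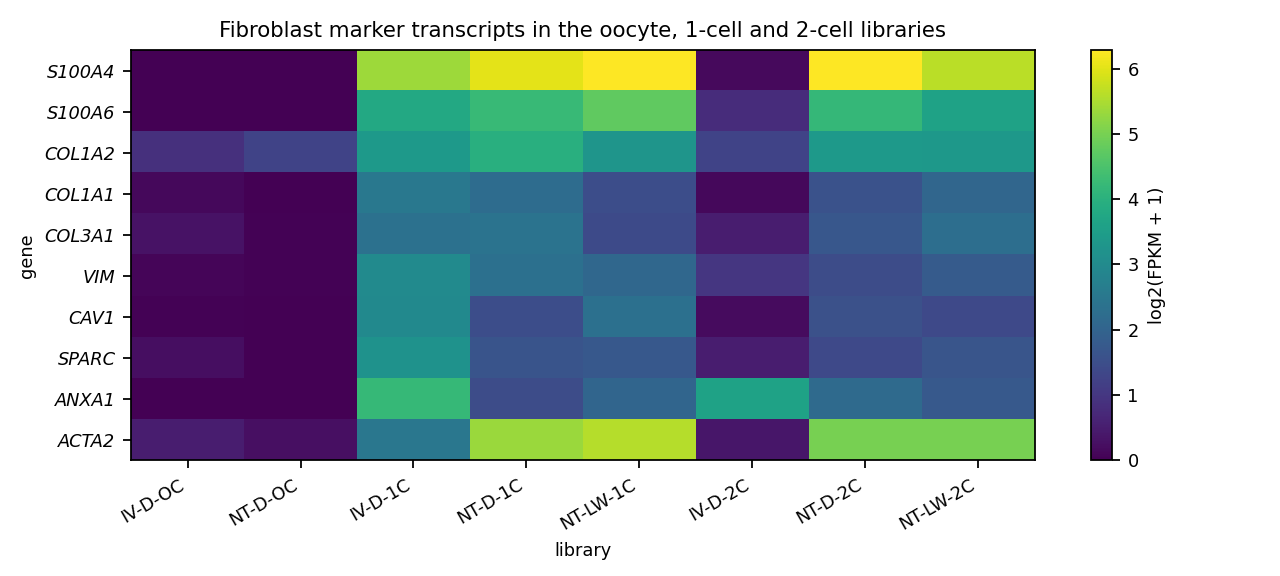
Levels of 10 fibroblast markers, as log2(FPKM + 1) in colour, in the 2 oocyte libraries, the 3 libraries of 1-cell embryos and the 3 of 2-cell embryos. Rows are genes and columns libraries. The rows are dark in both oocytes and, except ANXA1, in IV-D-2C. S100A4, S100A6 and COL1A2 are brighter in IV-D-1C and in the 4 clone libraries, and ACTA2 is brightest in the clones. ANXA1, SPARC, VIM, CAV1 and COL1A1 are brightest in IV-D-1C.

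Markers of other cells differed in level. Those named here, except HBB, VCAN, LDHC and CDH1, were picked after their values were seen. HBB, FCER1G and AIF1, of blood and immune cells, were at or below 0.14 FPKM in the 3 libraries. The epithelial keratins KRT8 and KRT18 were at or below 0.02 FPKM, whereas EPCAM, an epithelial adhesion molecule, had 15.7 FPKM in IV-D-1C, 12.8 in NT-D-1C and 13.7 in NT-LW-1C, and 5.76 and 14.7 in the oocytes. The list of cumulus and granulosa markers summed to 146, 113 and 112 FPKM, and to 156 and 153 FPKM in the oocytes. Its largest part was VCAN, a proteoglycan, with 102, 71.4 and 68.7 FPKM, and 120 and 101 FPKM in the oocytes. KITLG, the ligand of the KIT receptor, had 19.5, 18.7 and 21.6 FPKM. HAS2 and PTGS2, which expanding cumulus cells make, were at or below 0.43 FPKM. The part of such cells in the calls was not tested. Among sperm markers LDHC, a lactate dehydrogenase of the germ line, was higher in both clones on the FPKM scale alone, with 29.2 FPKM in IV-D-1C, 67.2 in NT-D-1C and 74.7 in NT-LW-1C. It stood at 47.7 and 47.3 FPKM in the oocytes. CDH1, the epithelial cadherin and also an oocyte transcript, was likewise higher on that scale alone, with 12.3, 26.2 and 32.5 FPKM.

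The genes that stood highest above the zygotes belong to many functions. SYCN, a protein of pancreatic secretory granules, had 19.8 FPKM in IV-D-1C, 344 in NT-D-1C and 235 in NT-LW-1C. These are 17.3 and 11.8 times the zygote level, with 95% counting intervals of 14.8 to 20.4 and 10.1 to 14.0. The gene, ENSSSCG00000021959, lies at chr6:47931030-47933405 of Sscrofa11.1. In both oocyte libraries it was well below the clones, with 14.0 FPKM in IV-D-OC and 46.5 in NT-D-OC. Counting intervals here and below are exact and cover the counting of fragments only, not the variation between pools of embryos.

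Energy metabolism gave the next gene. NDUFA8, a subunit of respiratory complex I, had 6.05 FPKM in IV-D-1C and 78.6 and 80.2 in NT-D-1C and NT-LW-1C. Both clones stood together at 13.0 and 13.3 times the zygote level. The oocytes held 3.04 FPKM in vivo and 9.50 in the recipients, and IV-D-2C reached 68.4 FPKM, so in vivo embryos had the clone level 1 stage later. HADHA, the alpha subunit of the mitochondrial trifunctional protein that breaks down long fatty acids, had 3.76, 24.0 and 24.3 FPKM. CDIPT, which makes phosphatidylinositol, had 1.21, 15.6 and 10.6 FPKM.

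Lipid transfer, signalling and the cytoskeleton were represented as well. OSBPL6, a relative of the oxysterol-binding protein, had 2.54 FPKM in IV-D-1C, 31.0 in NT-D-1C and 37.9 in NT-LW-1C. DKK4, a secreted inhibitor of Wnt signalling, had 1.63, 17.2 and 21.3 FPKM. KCNN3, a potassium channel opened by calcium, had 3.19, 23.3 and 22.4 FPKM. CAPZB, which caps the ends of actin filaments, had 2.44, 19.1 and 20.9 FPKM. In all of these both clones lay close together and far above the zygotes.

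ACTA2, the actin of smooth muscle and of contractile fibroblasts, had 4.66 FPKM in IV-D-1C, 39.6 in NT-D-1C and 46.9 in NT-LW-1C. Unlike the genes above it was almost missing from both oocyte libraries, at 0.42 and 0.19 FPKM. GNAT2, the transducin of cone photoreceptors, rested on 8 fragments in IV-D-1C and had 0.51, 12.7 and 12.8 FPKM, with 4.75 and 15.7 FPKM in the oocytes. CRHBP, which binds corticotropin-releasing hormone, had 1.98, 18.5 and 15.0 FPKM at the 1-cell stage and 33.3 and 32.0 FPKM in the oocytes. In these 2 genes IV-D-1C lay below both IV-D-OC and IV-D-2C. At the 2-cell stage GNAT2 had 19.0 FPKM in IV-D-2C, 18.2 in NT-D-2C and 7.18 in NT-LW-2C. CRHBP had 54.5, 24.7 and 17.7 FPKM there, so the clones were no longer above the in vivo embryos. SIAH3, a relative of the SIAH ubiquitin ligases, had 1.20, 12.6 and 19.6 FPKM. All 12 of these genes, the largest with a symbol and at least 10 FPKM in both clones, were also higher after median-ratio scaling.

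The largest difference of all belonged to a gene without a symbol, ENSSSCG00000035520, which was noticed after its values were seen. It had 28.9 FPKM in IV-D-1C, 7338 in NT-D-1C and 3182 in NT-LW-1C, ratios of 254 and 110. The same gap was present before nuclear transfer, with 4.17 FPKM in IV-D-OC and 5200 in NT-D-OC, and at the 2-cell stage, with 18.2, 6213 and 6508 FPKM. Its length in the table is 225 bases, and whether other copies share its reads was not tested, so the gene is reported as uncertain.

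**Figure D3:**
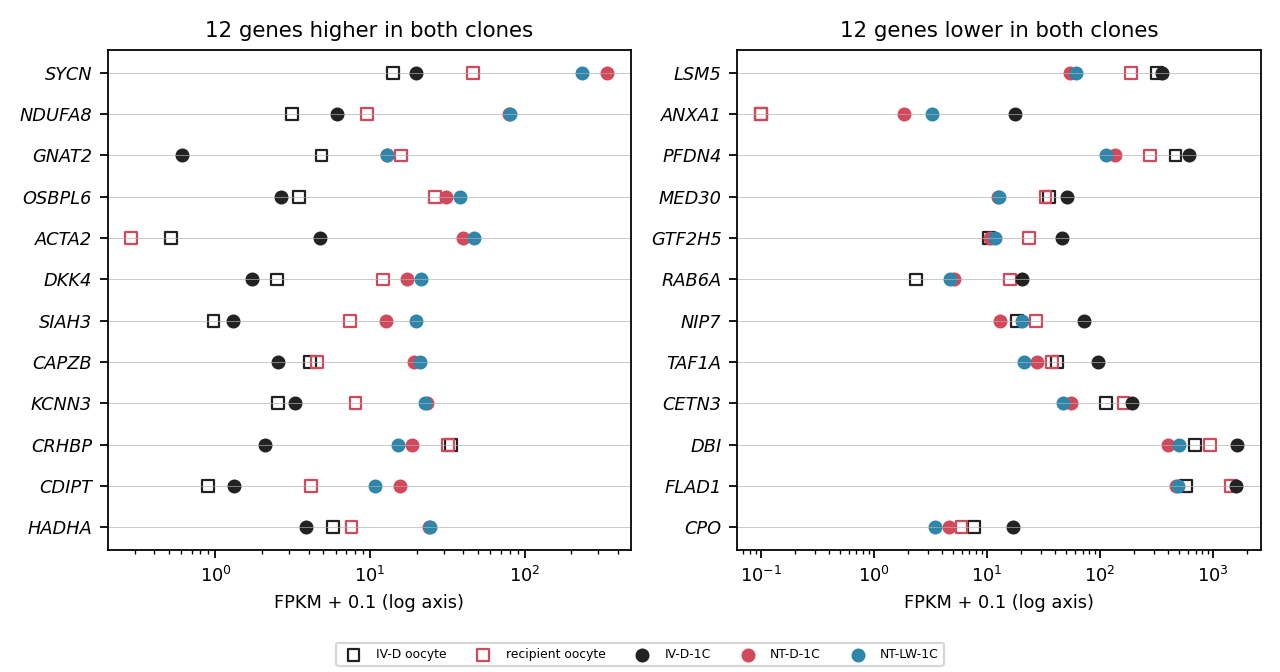
FPKM, plus 0.1 and on a log axis, of the 12 named genes higher (left) and the 12 lower (right) in both clones. Filled circles are the 1-cell libraries and open squares the oocyte libraries. In every row both clone circles lie on one side of the black IV-D-1C circle, and ACTA2 and ANXA1 stand apart from the rest with oocyte squares far to the left.

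The genes lower in the clones were short and, in the zygotes, abundant, with a median of 65.6 FPKM. LSM5, a subunit of the ring that binds U6 snRNA and decaying mRNAs, had 355 FPKM in IV-D-1C, 54.2 in NT-D-1C and 61.1 in NT-LW-1C. The zygotes thus stood 6.56 times (95% counting interval 6.11 to 7.05) above NT-D-1C and 5.81 times (5.47 to 6.18) above NT-LW-1C. The oocytes had 317 FPKM in vivo and 189 in the recipients. PFDN4, a subunit of the prefoldin chaperone that hands actin and tubulin to the chaperonin, had 612, 136 and 114 FPKM, with 466 and 278 FPKM in the oocytes.

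The next 4 genes act in transcription or in the assembly of ribosomes. MED30, a subunit of Mediator, had 51.0 FPKM in IV-D-1C, 12.3 in NT-D-1C and 12.7 in NT-LW-1C. GTF2H5, the smallest subunit of TFIIH, had 45.7, 10.5 and 11.6 FPKM. TAF1A, a subunit of the selectivity factor of RNA polymerase I, had 96.0, 27.6 and 21.2 FPKM. NIP7, which takes part in the assembly of large ribosomal subunits, had 71.4, 12.9 and 20.3 FPKM. In these 4 genes the zygotes stood above both oocyte libraries and the clones below the recipient oocytes.

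DBI, the acyl-CoA-binding protein, was among the most abundant of the group with 1628 FPKM in IV-D-1C, 400 in NT-D-1C and 495 in NT-LW-1C. FLAD1, the FAD synthase, had 1590, 469 and 486 FPKM, while its recipient oocytes had 1446 and the in vivo oocytes 575. CETN3, a centrin of the centrosome, had 191, 55.8 and 47.0 FPKM. RAB6A, a GTPase of Golgi traffic, had 20.5, 5.04 and 4.61 FPKM, and CPO, a carboxypeptidase, 16.7, 4.48 and 3.38. ANXA1, the fibroblast marker named above, had 17.6, 1.74 and 3.13 FPKM and was listed at 0 in both oocyte libraries.

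Several of the named mRNAs, lower and higher, carry the letters of the cytoplasmic polyadenylation element near their annotated 3′ end. This element is known to recruit the CPEB protein, which controls the tail length of stored mRNAs. TTTTAT and TTTTAAT were searched on the mRNA strand in the last 150 bases of the RefSeq mRNA with the longest coding sequence, with overlap of other motifs allowed. Of the 12 named lower genes 10 had a 3′ UTR of at least 150 bases and 5 held the element. Of the 12 named higher genes 10 had such a UTR and 3 held it, against 30.9% of 5128 genes tested. Over all 124 lower genes such a UTR was known for 54.0%, too few for a check of the group, which is void. The 3 higher genes were ACTA2, DKK4 and CAPZB. The sites of the 5 lower genes are shown as a description, and whether that pathway has a part in the differences was not tested. Capitals mark the element and, where it falls in the window, the poly(A) signal ATTAAA, and positions are those of Sscrofa11.1.
PFDN4, chr17:55167894-55167923, plus strand: tttaTTTTAATtgtaagttttagactctat
GTF2H5, chr1:8928320-8928349, minus strand: acctTTTTAATgccactttaatacattaag
RAB6A, chr9:8137950-8137979, minus strand: tttgTTTTATtttgacatggcatgtcctga
CETN3, chr2:97574122-97574151, minus strand: tagcTTTTATatatataaagttttaaaaaa
DBI, chr15:24900669-24900698, plus strand: tagtTTTTATcataggtcaATTAAAagtac
A match is a description of letters and not of a working site.

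Length and base composition moved with the calls. The median length of the genes in the table was 1767 bases for the lower genes, 2872 for the higher ones and 3158.5 for all genes tested. From the shortest to the longest quintile of genes the share called lower went from 4.32% to 0.279%, and the share called higher from 14.1% to 9.97%. For GC, 80.2% of the tested genes had a RefSeq mRNA. From the lowest to the highest quintile of GC content the share called higher went from 4.08% to 15.1% and the share called lower from 2.17% to 0.521%. The median difference of NT-D-1C went from 0.14 to 0.75 along the same quintiles, that of NT-LW-1C from 0.28 to 0.34, and that of the recipient oocytes against IV-D-OC from -0.07 to 0.65. Abundance moved with them too. In the quintile of genes with the highest FPKM in NT-D-OC the median difference was 0.05 for both clones, and 5.37% of these genes were higher and 4.32% lower. The part of length, GC content and abundance in the calls was not tested.

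The gene lists below were counted by the same rule, and each count is to be read against the 11.1% higher and 1.73% lower of all genes tested, and each median against 0.41 and 0.34. After median-ratio scaling these shares were 4.41% and 5.88%, and the counts of that scale are given for each list as well. No list was tested.

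Among 16 maternal oocyte transcripts, which are stored for the time before the embryonic genome is active, 3 were higher and 0 lower in both clones, and 1 and 1 after median-ratio scaling. BMP15, a growth factor secreted by the oocyte, had 55.1 FPKM in IV-D-1C, 209 in NT-D-1C and 306 in NT-LW-1C, and held on both scales. Its partner GDF9 had 23.9, 50.7 and 89.3 FPKM, and ZAR1, which keeps maternal mRNAs in store, 11.3, 38.2 and 31.1 FPKM. These 2 were higher on the FPKM scale alone. OOEP, MOS, H1-8 and most other members were not called, and the median of the list was 0.66 and 0.43 beside 0.41 and 0.34 for all genes.

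The list of meiotic exit and first cell cycle had 23 genes tested, of which 5 were higher and 1, MAD2L1, was lower, and 2 and 1 after median-ratio scaling. CDK1, the kinase of MPF, had 7.71 FPKM in IV-D-1C, 25.9 in NT-D-1C and 37.8 in NT-LW-1C, and the oocytes had 12.3 and 7.78. CDC25A, a phosphatase that activates such kinases, had 0.70, 3.43 and 3.86 FPKM. These were higher on both scales. CCNB2, a mitotic cyclin, had 44.5, 99.6 and 218 FPKM and CDC25B 1.56, 7.40 and 5.03 FPKM, both on the FPKM scale alone. The median of the list, 0.40 and 0.43, was near that of all genes.

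In the machinery of maternal mRNA translation and clearance 3 of 43 genes were higher and 1 lower, and after median-ratio scaling 1 and 3. YBX2, which packages stored mRNAs in germ cells, had 1.63 FPKM in IV-D-1C, 24.2 in NT-D-1C and 11.5 in NT-LW-1C, and held on both scales. CNOT1, the scaffold of the deadenylase complex, had 1.99, 5.32 and 5.88 FPKM and CNOT10 5.49, 12.02 and 17.2 FPKM, on the FPKM scale alone. PABPC1, the main poly(A)-binding protein of somatic cells, was lower with 3.06, 0.70 and 0.87 FPKM. Of 14 genes of egg activation and calcium signalling 1 was higher, the calcium channel ORAI1, with 1.85, 6.77 and 5.10 FPKM and on the FPKM scale alone, and after median-ratio scaling 0 were called.

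The mitochondrial genome stood out among the lists as the one with the lowest median. Its 13 protein genes had median differences of -0.77 in NT-D-1C and -0.96 in NT-LW-1C, 0 were higher and 4 were lower in both clones, and 7 were lower after median-ratio scaling. ND2, a subunit of complex I, had 6475 FPKM in IV-D-1C, 2247 in NT-D-1C and 1675 in NT-LW-1C. ND1 had 4095, 1914 and 1160 FPKM, ND3 805, 323 and 399, and ATP8, a subunit of ATP synthase, 59.1, 14.9 and 20.6. ND4L went the other way with 455, 786 and 1045 FPKM and was not called. In sum the 13 genes took 6.93% of the fragments of IV-D-1C, 4.68% of NT-D-1C and 3.52% of NT-LW-1C. In the oocytes the order was turned around, with 1.87% in IV-D-OC and 5.05% in NT-D-OC. The share was thus 5.05% in the recipients and 4.68% and 3.52% in the clones, while it was 1.87% in the oocytes in vivo and 6.93% in the zygotes.

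Nuclear genes of oxidative phosphorylation did not share this pattern. Of 52 tested 4 were higher and 1 lower, or 3 and 2 after median-ratio scaling, and the medians were 0.24 and 0.13 on the FPKM scale and -0.21 and -0.25 after median-ratio scaling. Beside NDUFA8 the higher genes were ATP5MC1, a c subunit of ATP synthase, with 3.65, 13.1 and 11.0 FPKM, NDUFA10 with 1.27, 6.05 and 4.58, and NDUFS6. Of these NDUFS6 was higher on the FPKM scale alone. NDUFB1, another subunit of complex I, was lower with 102, 26.2 and 47.1 FPKM.

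Cytosolic ribosomal proteins had 0 of 43 genes higher and 3 lower, and 0 and 6 after median-ratio scaling. RPL26L1 had 1615 FPKM in IV-D-1C, 427 in NT-D-1C and 573 in NT-LW-1C, with 225 in IV-D-OC and 1101 in NT-D-OC. RPL37 had 79.3, 33.4 and 36.5 FPKM, and RPS3A is given above. The medians were 0.10 and -0.23, and ribosomal protein genes are reported as uncertain because their many pseudogenes can share reads. Among 35 proteasome subunits 4, or 11.4%, were higher and 1 lower, near the share of all genes, while after median-ratio scaling 1 was higher and 5 were lower. PSMF1, an inhibitor of the proteasome, was listed at 0 in IV-D-1C and had 3.43 and 4.45 FPKM in the clones, at least 42.8 and 55.5 times a zygote level of 3 fragments.

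Chaperones had 5 of 33 genes higher, or 15.2% beside 11.1% of all genes, and 0 lower, while after median-ratio scaling 1 was higher and 1 lower. DNAJA3, a mitochondrial co-chaperone, had 4.87 FPKM in IV-D-1C, 17.2 in NT-D-1C and 18.5 in NT-LW-1C, and was the 1 gene of the 5 that held on both scales. HSP90B1, the HSP90 of the endoplasmic reticulum, had 11.4, 28.9 and 31.7 FPKM, and DNAJB1, which is induced by heat, 15.9, 35.5 and 61.2. Of 29 antioxidant genes 2 were higher, and after median-ratio scaling 1 was higher and 1 lower. TXNRD1, the thioredoxin reductase, had 3.82, 13.8 and 26.1 FPKM and held on both scales, and SLC7A11, the cystine transporter, had 7.50, 16.1 and 19.7 and held on the FPKM scale alone.

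Among 22 genes of apoptosis and DNA damage 2 were higher and 0 lower, and 1 and 1 after median-ratio scaling. BCL2L1, an inhibitor of apoptosis, had 6.80 FPKM in IV-D-1C, 31.7 in NT-D-1C and 33.5 in NT-LW-1C, on both scales. CDKN1A, the p21 inhibitor of cyclin-dependent kinases, had 4.83, 11.5 and 11.7 FPKM, on the FPKM scale alone. Of 13 immediate early and stress genes 1 was higher and 1 lower, with medians of 0.03 and -0.60, and after median-ratio scaling 0 were higher and 5 lower. FOS, a transcription factor that cells make within minutes of a stimulus, had 7.20 FPKM in IV-D-1C from 322 fragments, 0.21 in NT-D-1C from 9 fragments and 0.02 in NT-LW-1C from 1 fragment. It was listed at 0 in both oocyte libraries and had 0.03 FPKM in IV-D-2C, so that among the 8 oocyte, 1-cell and 2-cell libraries only IV-D-1C reached 1 FPKM. DUSP1, a phosphatase induced together with FOS, had 7.55, 3.51 and 1.43 FPKM. It was called in NT-LW-1C alone on the FPKM scale and in both clones after median-ratio scaling. BTG1 lay the same way with 5.37, 2.80 and 0.90 FPKM. IER2 lay the other way with 0.63, 1.95 and 2.79 FPKM, and JUN had 4.62, 4.75 and 3.76. DUSP1, BTG1, IER2 and JUN were picked after their values were seen. IER3 was higher, on the FPKM scale alone, with 55.4, 177 and 129 FPKM.

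Histones and their chaperones had 5 of 20 genes higher and 2 lower, beside 11.1% and 1.73% of all genes, while after median-ratio scaling 1 was higher and 3 were lower. CHAF1B, a subunit of the assembly factor that loads histones on new DNA, had 2.21 FPKM in IV-D-1C, 7.31 in NT-D-1C and 9.96 in NT-LW-1C, and held on both scales. UBN1 and UBN2, which belong to the HIRA complex for histone H3.3, had 6.47, 16.3 and 17.3 FPKM and 4.74, 12.2 and 12.8 FPKM, on the FPKM scale alone. H2AZ2, a histone variant, was lower with 30.5, 9.92 and 10.3 FPKM. H3-3A, a gene of histone H3.3, was lower as well.

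Histone lysine methylation enzymes had 5 of 28 genes higher, or 17.9% beside 11.1% of all genes, and 0 lower, with medians of 0.79 and 0.47. After median-ratio scaling 1 was higher and 0 were lower. SETDB1, which methylates lysine 9 of histone H3, had 5.67 FPKM in IV-D-1C, 17.5 in NT-D-1C and 25.2 in NT-LW-1C, and was the 1 gene that held on both scales. EZH1, of the Polycomb complex, had 3.02, 8.35 and 15.0 FPKM, KMT5B 10.1, 22.8 and 33.2, and KMT2C 7.30, 16.4 and 17.9. NSD1 was the last of the 5. Histone acetylation had 4 of 19 genes higher, KAT7, CREBBP, KAT8 and SIRT7, all on the FPKM scale alone, and 0 lower, while after median-ratio scaling 0 were higher and 1 was lower. CREBBP, a histone acetyltransferase, had 0.71, 5.09 and 2.83 FPKM. Of 8 genes of DNA methylation 0 were called on either scale. DNMT1, the maintenance methyltransferase and the most abundant of them, had 2971, 4572 and 5206 FPKM.

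Factors of RNA polymerase II and early activation had 4 of 26 genes higher and 1, GTF2H5, lower, or 2 and 4 after median-ratio scaling. OTX2, a homeobox factor stored in oocytes, had 41.9 FPKM in IV-D-1C, 167 in NT-D-1C and 207 in NT-LW-1C, with 107 and 96.2 in the oocytes. NFYC, a subunit of the CCAAT-binding factor, had 3.59, 14.1 and 12.6 FPKM. Both held on both scales, whereas GTF2H1, of TFIIH, with 2.07, 5.41 and 7.80 FPKM did not. OTX2 is also on the list of pluripotency factors, where LIFR, the receptor of leukaemia inhibitory factor, was the other of 2 higher genes among 8 tested, with 2.37, 9.98 and 8.35 FPKM. After median-ratio scaling these 2 genes of that list were higher and 0 were lower.

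In the metabolic lists 4 genes were higher and 0 lower on the FPKM scale. NSDHL of sterol synthesis, 1 of 12 tested, had 1.89 FPKM in IV-D-1C, 6.90 in NT-D-1C and 7.71 in NT-LW-1C. ALDOC, an aldolase and 1 of 18 glycolysis genes, had 1.51, 5.93 and 7.67 FPKM. ACACA, which makes malonyl-CoA for fatty acids, had 2.45, 8.86 and 7.35 FPKM and joined HADHA as the second of 19 lipid genes. NSDHL and ALDOC held on both scales and ACACA on the FPKM scale alone. After median-ratio scaling 1 gene was higher and 1 lower of sterol synthesis, 1 and 2 of glycolysis, and 1 and 3 of the lipid list.

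**Figure D4:**
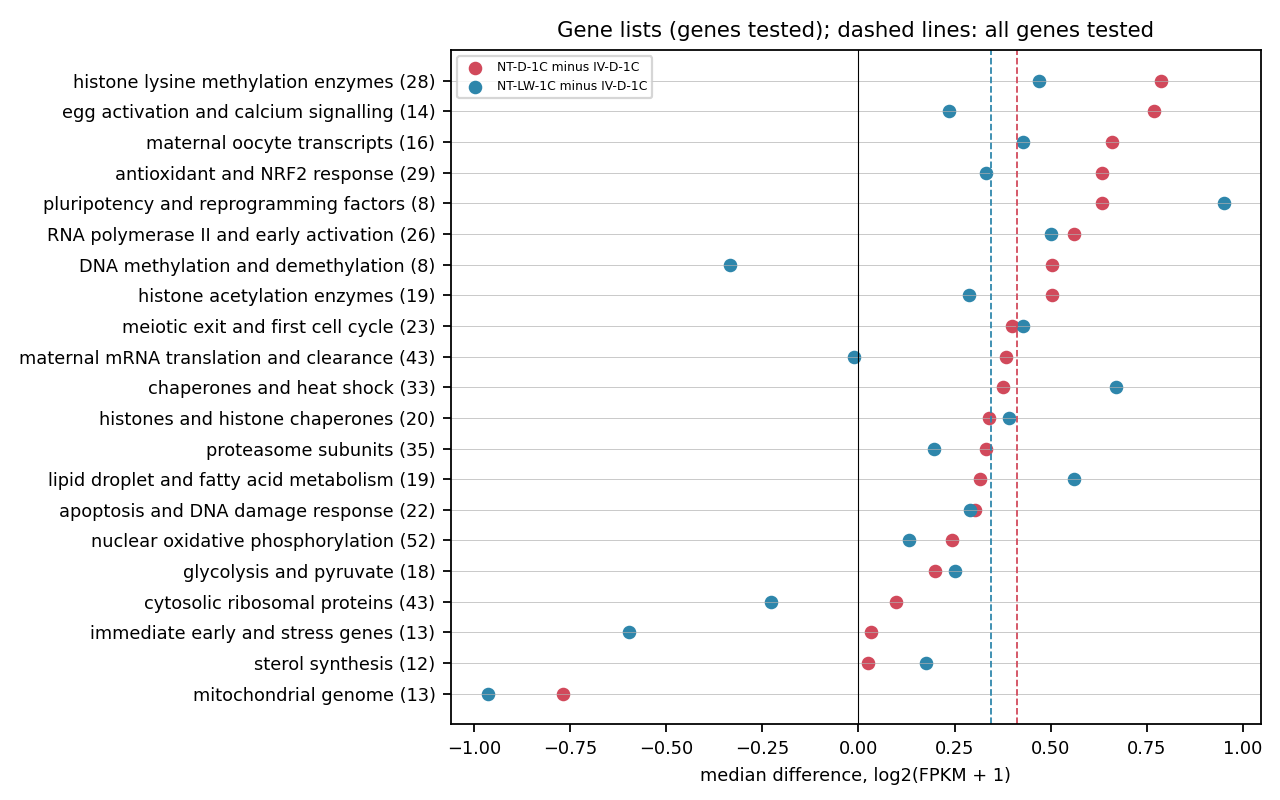
Median difference of each clone from IV-D-1C, in log2(FPKM + 1), for the 21 gene lists, with the number of genes tested in parentheses. Red points are NT-D-1C, blue points NT-LW-1C, and dashed lines the medians of all genes tested, 0.41 and 0.34. The mitochondrial genome lies lowest with both points below 0. Both points lie to the right of their lines for histone lysine methylation enzymes and maternal oocyte transcripts. The same holds for RNA polymerase II and early activation and for pluripotency factors.

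The recipient oocytes already differed from the in vivo oocytes before nuclear transfer, in libraries that the rule did not use. NT-D-OC had 903 genes higher (13.3% of 6771 tested) and 102 lower (1.51%) than IV-D-OC. Of the 764 higher genes of the clones that could be tested in oocytes 125 were higher there as well, or 16.4% (95% Wilson interval 13.9 to 19.2). This share is a little above the 13.3% of all genes. After median-ratio scaling it was 15.8% of 297 genes, beside 6.70% of all genes. Of 112 lower genes 5 were lower there, or 4.46% (1.92 to 10.03), and 14 were higher. The intervals of shares, here and below, treat genes as independent, which they are not. They do not cover the variation between pools and are no test. Most genes called in the clones were not called in the oocytes, but neither were most of all genes tested there, with 13.3% higher and 1.51% lower.

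The 2-cell libraries, which the rule did not use, came from other embryos of the same groups. Both 2-cell clones were higher than IV-D-2C in 351 genes (5.00% of 7017) and lower in 93 (1.33%). Of 791 higher genes of the 1-cell clones 110 were higher again, 13.9% (11.7 to 16.5), and 5 were lower. Of 116 lower genes 17 were lower again, 14.7% (9.36 to 22.2), and 2 were higher. After median-ratio scaling these shares were 6.41% of 312 higher genes, beside 1.78% of all genes, and 21.1% of 413 lower genes, beside 4.13%. The shares in the same direction lay above those of all genes on both scales, without a test of the difference, and most genes of either group were no longer called.

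Some genes kept the difference from the oocytes to the 2-cell embryos. MRAP2, an accessory protein of melanocortin receptors, had 0.20 FPKM in IV-D-OC and 4.85 in NT-D-OC, then 0.21, 5.33 and 8.34 at the 1-cell stage and 0.38, 4.91 and 3.34 at the 2-cell stage. FSD2 had 2.05 and 11.9 FPKM in the oocytes, 1.56, 13.5 and 10.8 in 1-cell embryos, and 2.68, 10.5 and 12.2 in 2-cell embryos. OSBPL6 and ERFL were the others of the 4 higher genes with the largest such differences. On the lower side LSM5, PFDN4, ATP8 and SLC25A31 led. SLC25A31, the ADP/ATP carrier of germ cells, had 208 and 95.8 FPKM in the oocytes, 145, 59.1 and 62.4 in 1-cell embryos, and 165, 78.1 and 62.5 in 2-cell embryos.

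The course from oocyte to 1-cell embryo differed between the groups in both sets of genes. It shares the 1-cell libraries with the rule and is given as a description. The median of the 124 lower genes was 31.7 FPKM in IV-D-OC and 65.6 in IV-D-1C, but 37.3 in NT-D-OC and 18.5 and 20.9 in NT-D-1C and NT-LW-1C. Of these genes 59 were called higher in IV-D-1C than in IV-D-OC and 0 lower, while 41 were called lower and 2 higher in NT-D-1C, and 28 lower and 3 higher in NT-LW-1C, than in NT-D-OC. The median of the 796 higher genes was 5.79 FPKM in IV-D-OC and 3.87 in IV-D-1C, but 7.39 in NT-D-OC and 13.3 and 14.3 in the clones. Of them 176 were called lower and 12 higher in IV-D-1C than in IV-D-OC, while 184 were higher and 0 lower in NT-D-1C and 253 higher and 2 lower in NT-LW-1C. Over all 7170 genes 12.8% were higher and 7.11% lower in IV-D-1C than in IV-D-OC, 7.00% and 1.53% in NT-D-1C than in NT-D-OC, and 7.14% and 1.20% in NT-LW-1C than in NT-D-OC. The median steps of all genes were 0.13, 0.25 and 0.20. In the medians of the called genes zygotes and clones moved in opposite directions from their oocytes, which the choice of the genes favours.

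**Figure D5:**
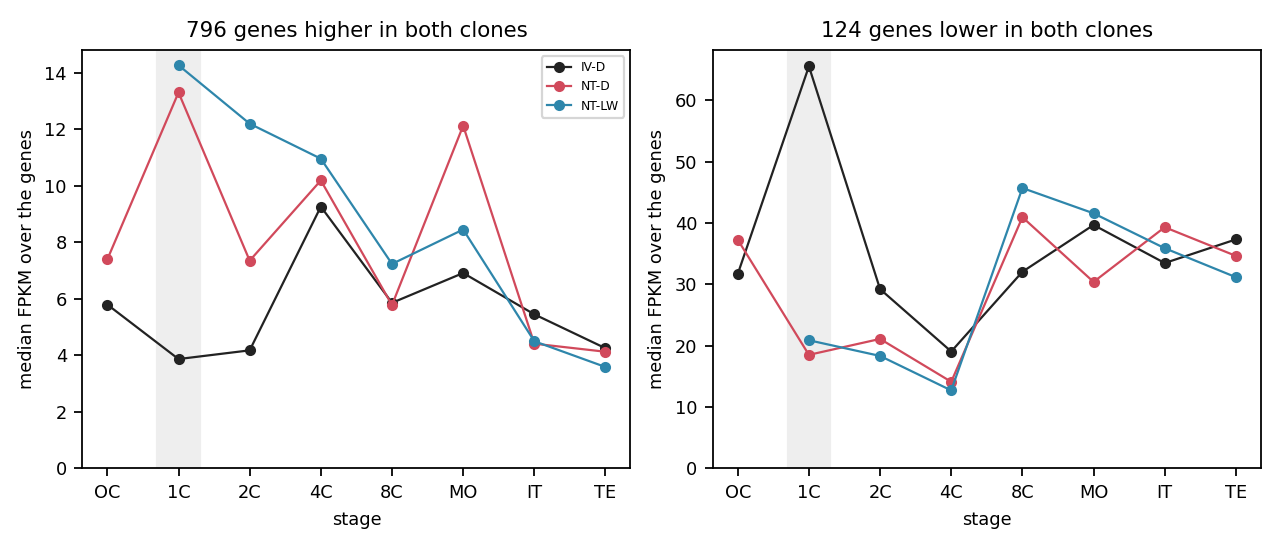
Median FPKM of the 796 higher genes (left) and the 124 lower genes (right) at each stage, from oocyte (OC) through 1-cell to 8-cell embryos and morula (MO) to the inner cell mass with trophectoderm (IT) and the trophectoderm alone (TE), for IV-D (black), NT-D (red) and NT-LW (blue). The shaded stage is the one that chose the genes. The lower genes peak at 65.6 FPKM in IV-D-1C and stand at 29.2 in IV-D-2C, and at the 4-cell stage the 3 groups lie between 12.7 and 19.1.

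At the 4-cell stage 7.14% of 7628 genes were higher and 7.05% lower in both clones. Of the higher genes of the 1-cell clones 10.6% were higher and 4.18% lower there, and of the lower genes 11.0% were lower and 5.93% higher. At the 8-cell stage 8.59% of 7685 genes were higher and 13.0% lower. Of the higher genes 10.3% were higher and 12.3% lower there, and of the lower genes 6.78% were lower and 17.8% higher. No difference between these shares was tested.

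Between the clones, which differ in breed and donor line, the largest differences with a symbol and at least 10 FPKM concerned genes that were mostly not called in both against the zygotes. PPP2R1A, the scaffold of protein phosphatase 2A, had 30.4 FPKM in NT-D-1C, 5.94 in NT-LW-1C and 9.83 in IV-D-1C. SHISA2 had 16.8, 3.62 and 15.8 FPKM, CNNM3 23.3, 4.91 and 12.3, and POGK 18.7, 4.71 and 9.79. In the other direction PAPOLG, a poly(A) polymerase, had 15.0 FPKM in NT-D-1C, 52.2 in NT-LW-1C and 13.2 in IV-D-1C. WDR48, a partner of deubiquitinases, had 25.9, 85.5 and 12.05 FPKM and was higher than the zygotes in both clones on the FPKM scale alone. FASTKD1, a mitochondrial RNA-binding protein, had 8.70, 29.3 and 33.3 FPKM, and HBP1 6.22, 23.0 and 7.20.

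The most abundant transcripts with a symbol were mainly not called in both clones. COX3 had 16959 FPKM in IV-D-1C, 9960 in NT-D-1C and 8693 in NT-LW-1C. COX1 had 12108, 9272 and 6937 FPKM, COX2 7754, 3877 and 4645, and ATP6 13094, 10531 and 6773. UBB, a polyubiquitin gene, had 12188, 12478 and 7840 FPKM. AKIRIN2, a nuclear factor needed for proteasome import, had 7657, 4590 and 3549 FPKM. After median-ratio scaling COX3, COX2 and AKIRIN2 were lower in both clones.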

How the data were processed

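RNA had been amplified with SMART-Seq v4 from pools of oocytes or embryos and sequenced as paired reads. Per the labels the authors aligned them to Sscrofa11.1 with HISAT2 2.0.4, counted fragments per gene with HTSeq 0.9.1 and deposited gene levels as FPKM, which is fragments divided by gene length and by library depth, for 8603 genes, by the name of the table the differentially expressed ones. How these genes were chosen is not given in the sources used here, so all counts are counts within this table, and it holds 1 library per condition. Symbols were paired with 7371 IDs, and RefSeq gave a single place in Sscrofa11.1 for 6854.

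Differences were taken on log2(FPKM + 1). A gene was tested with FPKM of at least 1 in one library of a pair and called at a difference over 1. No p-value exists between single libraries. Whole fragments were recovered from the steps of the FPKM values for 100% of the 8603 genes, with a largest relative deviation of 9.54e-08, and gave the depth, the lengths and the exact intervals, which cover counting error only. A bound against 0 uses 3 fragments per library.

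The members and gene lists were chosen with earlier results of these data known. Named genes are the 12 in each direction with a symbol, at least 10 FPKM and the largest smaller difference, up to 4 called genes of each list (or its most abundant gene), the 4 in each direction that differ most between the clones, the 6 most abundant, and the 4 in each direction that differ most from oocyte to 2-cell embryo. Genes outside this rule are marked as picked after seeing values. Alternatives were a pseudocount of 0.1, a minimum of 5 FPKM or none, sums of 1000000, median-ratio scaling, a threshold of 1.5, at least 10 fragments, and an exact binomial test on fragments with adjusted p below 0.005, which compares libraries and not conditions. The method was tested on simulated data. The work used SciPy 1.17.1, pysam 0.24.0, pandas 2.3.3, NumPy 2.4.6 and matplotlib 3.10.9 under Python 3.11.15.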

Additional observations from a re-analysis of the deposited data

How the results depend on the processing

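Scaling decided the balance of the calls. With sums of 1000000, 1583 genes were higher and 80 lower in both clones. Singly, NT-D-1C then had 2260 higher and NT-LW-1C 2541 higher and 170 lower, and the 2-cell share of the higher genes was 21.3%. After median-ratio scaling the counts were 316 and 422, singly 525 higher and 680 lower in NT-D-1C and 749 and 827 in NT-LW-1C, and that share was 6.41%.

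A pseudocount of 0.1 gave 1224 genes higher, 764 that differed between the clones, and shares of the higher genes of 23.3% in oocytes and 25.1% at the 2-cell stage. A threshold of 1.5 left 208 higher and 31 lower, singly 384 and 67 in NT-D-1C and 540 and 70 in NT-LW-1C, and 72 between the clones. The shares of higher genes fell to 8.91% in oocytes and 5.29% at the 2-cell stage, and those of lower genes to 0% and 3.45%. The exact binomial test on fragments called 1437 genes higher and 198 lower, singly 2173 higher and 374 lower in NT-D-1C and 496 lower in NT-LW-1C, 908 between the clones, and gave shares of 25.99% and 28.8% for the higher genes. It covers counting error only. The other alternatives left every count within 1.5 times and every share within its interval.

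No named gene called in a clone changed direction under another pseudocount or scaling, an outcome that was fixed in advance. A pseudocount keeps the sign of a difference, and the scalings moved no called difference against its direction by as much as the threshold of 1. No paired analysis was possible because each condition has 1 library. Without replicates the variation between pools of embryos is unknown. Genes with few fragments in a library, such as GNAT2 in the zygotes and FOS in the clones, are imprecise.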

Other observations

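Of the 796 higher genes 32 and of the 124 lower genes 12 were below 1 FPKM in both oocyte libraries. The other 764 and 112 reached 1 FPKM in at least one of them, as did 6743 of all 7170 genes tested. Among the lower ones, noted after their values were seen, FGF21, a secreted metabolic hormone, had 5.38 FPKM in IV-D-1C, 0.61 in NT-D-1C and 0.92 in NT-LW-1C. In the oocytes FGF21 had 0.52 FPKM in IV-D-OC and 0.91 in NT-D-OC, so the clones lay near the recipient level. HERPUD1, a gene of the unfolded protein response, had 2.54, 0.30 and 0.47 FPKM, and EMP1 2.10, 0.39 and 0.17. Among the higher ones SELENOM, a selenoprotein, had 4.71, 19.4 and 12.1 FPKM, on the FPKM scale alone, and PDLIM7, a protein of actin fibres, 0.99, 6.74 and 6.94, on both scales.

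HBB and FCER1G, markers of blood cells, reached 9.82 and 37.0 FPKM in IV-D-2C, while they were at or below 0.12 and listed at 0 in both oocyte libraries, and at or below 0.19 FPKM in the 2-cell clones. Their part in the 2-cell comparison was not tested. ENSSSCG00000035520, the gene with the largest difference, stayed between 4.17 and 55.9 FPKM in all 8 libraries of in vivo oocytes and embryos and between 3182 and 35929 FPKM in all 15 libraries of recipient oocytes and clones.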
